A study of Mus musculus with 6 samples.

Results

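The cells described here are brain cells that carry transcripts of several microglia genes and almost none of a set of inflammatory cytokine genes. A cell was a member when at least 3 of 8 microglia genes (P2ry12, Tmem119, Cx3cr1, Csf1r, Siglech, Gpr34, Trem2 and Selplg) each had at least 1 UMI, that is, 1 counted transcript molecule. Fewer than 2 of 5 genes of other cells (Cldn5, Kl, Cd3e, Mrc1 and Csf3r) could be detected, and at most 1 of 7 cytokine and activation genes (Ccl2, Ccl3, Ccl4, Tnf, Il1a, Il1b and Cd83). Barcodes entered with 500 or more UMIs, 300 or more genes detected and a mitochondrial share of no more than 15%. This gave 14469 members among 94144 such cells. Another 6642 cells passed the same marker and exclusion limits with 2 or more of the 7 cytokine genes, and are called cytokine-rich below.

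The series holds 6 droplet libraries of freshly dissociated mouse brain cells, read from the 3' end of the transcripts, with 2 libraries in each of 3 groups. The groups are wild type with vehicle, wild type with bilirubin, and a mutant labelled TRPM2 Mg KO with bilirubin, called the knockout below. The knockout has no vehicle libraries, so its genotype was compared only in the presence of bilirubin. The series title names the liver under stress and negative emotions. Bilirubin is the yellow product of haem breakdown that the liver clears from the blood, and TRPM2 is a calcium-permeable channel that ADP-ribose and oxidative stress open. The labels do not expand "Mg" and name no promoter or Cre driver. The sources used here do not give the dose, duration, brain region, strain, age or sex. Whether the replicates are separate animals is not stated in the labels, so a p-value here reflects only the variation among these libraries, part of which may be technical.

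Microglia are the resident macrophages of the brain parenchyma. In the undisturbed brain they express purinergic and chemokine receptors such as P2ry12 and Cx3cr1, depend on the growth factor receptor Csf1r, and carry lysosomal proteases such as Ctss and the complement subunits C1qa, C1qb and C1qc. On activation they release cytokines and chemokines, and removal of brain tissue and enzymatic dissociation can start the same programme.

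Members numbered 2966 and 4443 in the vehicle libraries, 2697 and 732 in the bilirubin libraries, and 3073 and 558 in the knockout libraries. The libraries held 24165563 to 63402551 UMIs, and the members of a library together 1552382 to 11860633. The second bilirubin and second knockout libraries therefore give the least precise values. Median UMIs per member were 1335 and 2190 with vehicle, 1815 and 1425.5 with bilirubin, and 1750 and 1865.5 in the knockout. The median mitochondrial share of a member was 0.932% and 0.760% with vehicle, 6.97% and 0.576% with bilirubin, and 5.41% and 3.65% in the knockout. The first bilirubin library and both knockout libraries thus stood apart from the other 3 in this measure, and its part in the results below was tested only through an alternative fit. Of the barcode sequences, 980 occurred in more than 1 library, and 25 did so among the members.

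The gate did not yield microglia alone. A further 10 microglia genes that the gate did not use (among them Sall1, Fcrls, Olfml3, C1qa, C1qb, C1qc, Ctss, Tyrobp and Aif1) give a check of the label, although they come from the same cells and are described without a test. C1qa, a subunit of the complement initiator C1q, reached 2129 and 2528 CPM (UMIs of a gene relative to all UMIs of the cells summed) in the members of the vehicle libraries, 2755 and 3447 with bilirubin, and 2526 and 2380 in the knockout. In cells outside the marker gate the same libraries held 1130 and 964 CPM, 1066 and 384 CPM, and 1071 and 1677 CPM. Members thus exceeded the rest of their library by 1.42 to 8.97 times for C1qa. Sall1, a transcription factor of microglial identity, was 1.43 to 7.35 times and Tyrobp, a signalling adaptor of myeloid receptors, 1.27 to 5.41 times as high. The second bilirubin library gave the largest ratio for these 3 genes, and the second knockout library the smallest.

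Transcripts of other cells were also found in the members, and how close they came to the level outside the gate differed by gene. Ttr, the transthyretin transcript of choroid plexus epithelium, stood at 9681 and 63959 CPM in the members with vehicle, 70029 and 66794 with bilirubin, and 52400 and 53654 in the knockout, or 0.492 to 0.775 times the level outside the gate. The neuronal non-coding RNA Bc1 was at 0.797 to 1.05 times that level and the haemoglobin transcript Hbb-bs at 0.722 to 1.02 times. S100a8, a neutrophil transcript, ranged from 0.193 to 5.66 times. Choroid plexus epithelium, defined by Ttr and at least 2 of Kl, Folr1, Clic6, Enpp2 and Kcne2, overlapped with 5.70% to 41.5% of the members of a library. The share was lowest in the first vehicle library, which also had the lowest Ttr, and highest in the second. Whether these transcripts were free RNA in the droplet or came from a second cell was not tested.

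**Figure D1:**
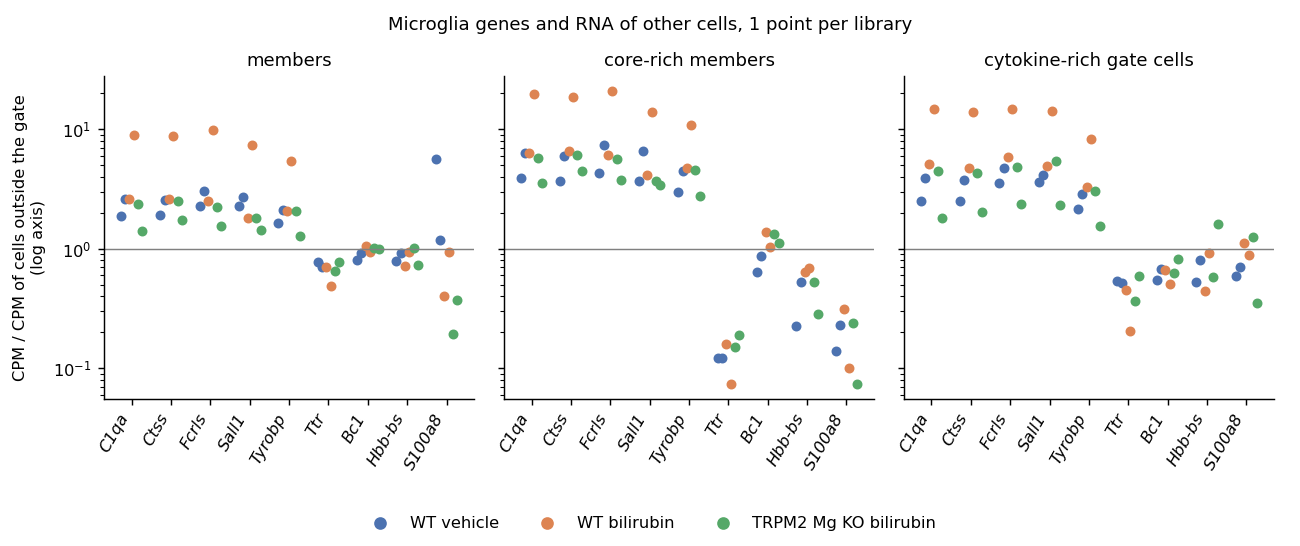
Level of microglia genes and of transcripts of other cells relative to cells outside the marker gate of the same library (y axis, ratio of CPM on a log axis), with 1 point per library coloured by group, for members, core-rich members and cytokine-rich cells. For C1qa all 6 member points lie above 1, from 1.42 to 8.97, while Ttr lies below 1, from 0.492 to 0.775.

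Because of this mix, members were also ranked by the share of their UMIs that came from the 10 genes, and those with at least 2% are called core-rich. This class was added after the data had been seen, and it is a range on a continuous score and not a cell type. It held 419 and 1030 members with vehicle (14.1% and 23.2% of the members), 913 and 384 with bilirubin (33.9% and 52.5%), and 1024 and 140 in the knockout (33.3% and 25.1%). Both bilirubin and both knockout libraries were above both vehicle libraries. The first bilirubin and first knockout libraries were close, and the second bilirubin library was the only one with most of its members in the class. Within 0.5 percentage points of the limit lay 122 to 859 members per library. In core-rich members C1qa exceeded the level outside the gate by 3.57 to 19.6 times and Ttr came down to 0.0745 to 0.190 times. Hbb-bs was at 0.227 to 0.693 times that level. Bc1 remained near it, at 0.643 to 1.39 times, so this class also holds RNA of other cells. The same 2% were reached by 35.2% to 74.7% of the cytokine-rich cells and by 1.49% to 7.87% of the choroid plexus cells, including those inside the gate. Since the 10 genes define the class, their levels in it are a description. The label microglia holds for part of the members only, and the whole set is named below by its rule.

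**Figure D2:**
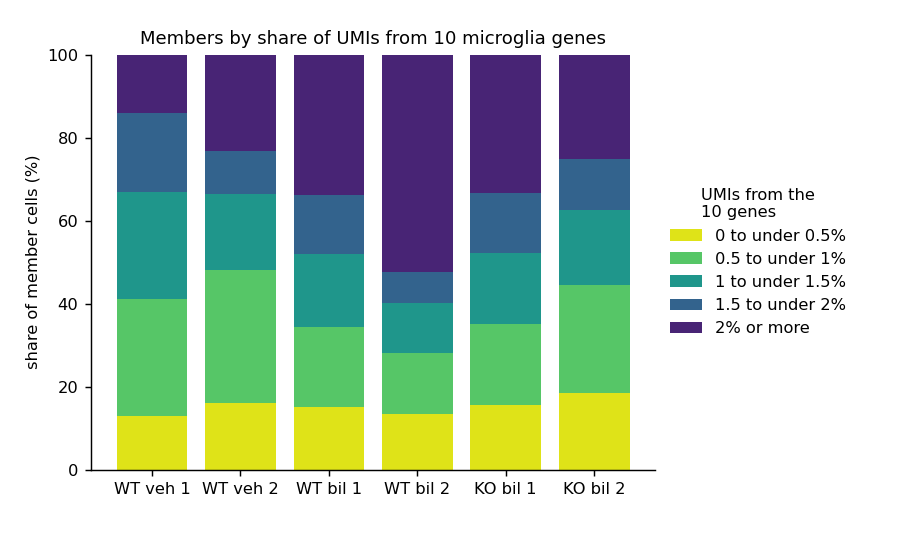
Share of the member cells of each library (y axis, percent) by the share of their UMIs that came from the 10 microglia genes outside the gate, as stacked bars for the 6 libraries. The part with 2% or more grows from 14.1% in the first vehicle library to 52.5% in the second bilirubin library.

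The gate genes followed this score, which is a description and not a test because both come from the same cells. P2ry12, the ADP receptor that guides microglial processes, was at 192 CPM in the members of the first vehicle library with under 0.5% core UMIs and at 536 CPM in its core-rich members. In the second bilirubin library the corresponding levels were 71.8 and 948 CPM, and in the second knockout library 113 and 910 CPM. Core-rich members held 4.34 to 5.47 of the 8 gate markers on average, against 3.28 to 3.53 below 0.5%. Many members entered at the limit, since 42.2% to 56.2% per library had exactly 3 markers.

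Just inside the marker limit, the 7358 members with 3 markers had a core-rich share of 14.2%. Just outside it, 14902 cells with 2 markers and otherwise the same gates had 7.06%. At the cytokine limit, 7875 members had no cytokine gene and a core-rich share of 25.9%, and 6594 had 1 such gene and 28.3%. The 3334 cells with 2 cytokine genes, just outside, had 42.0%, and the 3308 cells with 3 or more had 63.0%. Median depth moved the same way, from 1658 UMIs with no cytokine gene to 1898 with 1, 2358 with 2 and 3349 with 3 or more. Pooled over the libraries, fewer cytokine genes thus went with shallower cells and with a lower content of microglia transcripts. The step from no cytokine gene to 1 did not hold for this content in every library. In the second knockout library the core-rich share was 25.4% with no cytokine gene and 24.7% with 1.

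The cytokine gene most often detected in the members of each library was Ccl4, a chemokine that draws monocytes and lymphocytes. Ccl4 was detected in 38.9% and 30.8% of the members with vehicle, 27.6% and 12.7% with bilirubin, and 21.6% and 28.1% in the knockout. The other 6 cytokine genes were each detected in at most 9.84% of the members of a library. After thinning each cell to 1000 UMIs, and leaving out 50 to 481 shallower members per library, the Ccl4 share was 31.5% and 18.9%, 16.2% and 8.18%, and 12.5% and 16.5%. Choroid plexus cells outside the gate, an epithelium that should not make Ccl4 and whose median depth was 1867 to 8227 UMIs per library, gave 22.1% and 13.8%, 12.9% and 4.80%, and 10.8% and 24.0% on the same basis. The members were above this background in 5 libraries and below it in the second knockout library. No group difference was read from Ccl4.

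Of the marker genes themselves, Cx3cr1, the receptor of the neuronal chemokine fractalkine, varied most between libraries. It was at 625 and 458 CPM with vehicle, 140 and 471 with bilirubin, and 154 and 238 in the knockout. It was detected in 53.4% and 55.6% of the members with vehicle, 25.6% and 44.5% with bilirubin, and 29.2% and 34.9% in the knockout. Thinned, these shares were 42.1% and 33.9%, 13.7% and 35.7%, and 16.3% and 20.6%, against 2.05% to 6.87% in choroid plexus cells. In core-rich members the levels were 1057 and 1168, 325 and 1025, and 322 and 668 CPM. The 3 libraries with high mitochondrial shares were the 3 with low Cx3cr1, and the 2 bilirubin libraries were on opposite sides. P2ry12 at 288 to 459 CPM, Csf1r at 345 to 767 CPM, Tmem119 at 143 to 232 CPM and Siglech at 115 to 264 CPM varied less. These 5 genes chose the cells, so none was tested.

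The share of members among all cells was 14.8% and 18.3% with vehicle, 12.9% and 8.52% with bilirubin, and 18.9% and 13.5% in the knockout. Both bilirubin libraries were below the other 4, at 10.7% ± 3.13 (SD, n = 2) against 16.6% ± 2.44 with vehicle and 16.2% ± 3.81 in the knockout. With 2 libraries against 2, the exact permutation test, two-sided, cannot go below p = 0.333, which is the value it gave for bilirubin against vehicle and for the knockout against bilirubin. The order did not hold for core-rich members, whose share of all cells was 4.43% ± 0.0612 with bilirubin and 3.17% ± 1.52 with vehicle. Among the cells that passed the marker and exclusion gates, members made up 65.4% and 70.2%, 67.3% and 55.4%, and 76.0% and 64.4%, and the groups overlapped.

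Trpm2, the gene named by the knockout label, was sparse in the members. It had 59 and 111 UMIs with vehicle, 47 and 32 with bilirubin, and 58 and 12 in the knockout. These counts correspond to 12.7 and 10.3, 6.76 and 17.1, and 6.81 and 7.73 CPM, and the knockout libraries lay inside the range of the bilirubin libraries. Here and below, levels of single genes in the members are scaled by the TMM factors of edgeR. Levels outside the gate, in choroid plexus cells and summed over a list are not scaled. Cebpb levels in cytokine-rich cells and in members with no cytokine gene are not scaled either. Knockout against bilirubin gave a log2 fold change of -0.63 (SE 0.47, edgeR Benjamini-Hochberg adjusted p = 1), and it became 0.12 without the second bilirubin library. A 3' tag outside a deleted part of a gene is still counted, so this level checks nothing about the deletion.

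Gene levels were compared on the UMIs summed over the members of each library, in 1 edgeR quasi-likelihood fit of 15364 genes. The 20 gate genes were left out of the tests. In bilirubin against vehicle no gene passed an adjusted p of 0.05 (0% of the genes tested), with 1287 genes at an unadjusted p under 0.05 and 10 genes called by DESeq2. In the knockout against bilirubin 1 gene passed (0.00651%), with 366 genes at an unadjusted p under 0.05 and 5 called by DESeq2. Restricted to core-rich members, 10994 genes could be tested, with 0% and 0.0091% called and 569 and 265 genes at an unadjusted p under 0.05; DESeq2 was not run on them. These 2 comparisons share the bilirubin libraries, so a gene that is high or low there tends to appear in both with opposite signs, and the values are given side by side.

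The gene that passed was Cebpb, which encodes C/EBPβ, a transcription factor of myeloid cells that acts on acute-phase and cytokine genes. Its level was 55.2 and 55.9 CPM with vehicle, 95.2 and 92.8 with bilirubin, and 13.6 and 9.02 in the knockout, from 256 and 602, 662 and 174, and 116 and 14 UMIs. The 3 groups did not overlap. Cebpb fell by 2.99 on the log2 scale in the knockout against bilirubin (SE 0.35, edgeR adjusted p = 0.0495), lower in both knockout libraries than in either bilirubin library. Bilirubin against vehicle gave 0.76 (SE 0.32, edgeR adjusted p = 0.585), and the knockout against vehicle -2.23 (SE 0.35, edgeR adjusted p = 0.344). Neither of these passed.

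In core-rich members Cebpb stood at 76.4 and 102 CPM with vehicle, 150 and 178 with bilirubin, and 22.3 and 13.8 in the knockout, without TMM scaling. Knockout against bilirubin gave a log2 fold change of -3.01 in these cells (edgeR adjusted p = 0.0319). Cytokine-rich cells held more of the transcript, at 115 and 105, 268 and 315, and 43.3 and 25.5 CPM, with the same order of groups. Members with no cytokine gene had 41.2 and 37.0, 70.2 and 68.0, and 10.2 and 8.45 CPM. The difference between members and cytokine-rich cells in the knockout effect was 0.02 on the log2 scale (SE 0.29), so the effect was not told apart between these sets.

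Cells outside the marker gate showed the same order. Their Cebpb was 37.4 and 25 CPM with vehicle, 75.6 and 53.5 with bilirubin, and 11 and 12.8 in the knockout. The second knockout library had more Cebpb outside the gate than in its members. The thinned share of members with a Cebpb UMI was 5.19% and 5.11%, 9.12% and 9.58%, and 1.54% and 0.946%, and unthinned it was 7.99% and 11.3%, 19.0% and 16.8%, and 3.61% and 2.51%. Choroid plexus cells outside the gate gave thinned shares of 2.45% and 2.31%, 5.98% and 3.01%, and 1.03% and 1.17%, above the members only in the second knockout library. Whether choroid plexus cells make Cebpb themselves was not tested, so these shares are not a known background. Summed over all choroid plexus cells, also those inside the gate, Cebpb was at 29.5 and 24.9 CPM with vehicle, 67.2 and 42.6 with bilirubin, and 10.4 and 13.1 in the knockout. This sum therefore shares cells with the members. How much of the members' difference came from RNA of other cells was not tested.

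The call for Cebpb was close to its threshold. It passed under 17 of 21 alternatives, with log2 fold changes of -3.38 to -2.78 and edgeR or DESeq2 adjusted p of 3.9e-10 to 1. It did not pass when the gate was applied to thinned counts (edgeR adjusted p = 0.0809), with the replicate number as a block (0.0858), nor without knockout replicate 1 or without knockout replicate 2 (edgeR adjusted p = 1 for each), when the remaining knockout library is assumed to vary like the other groups.

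**Figure D3:**
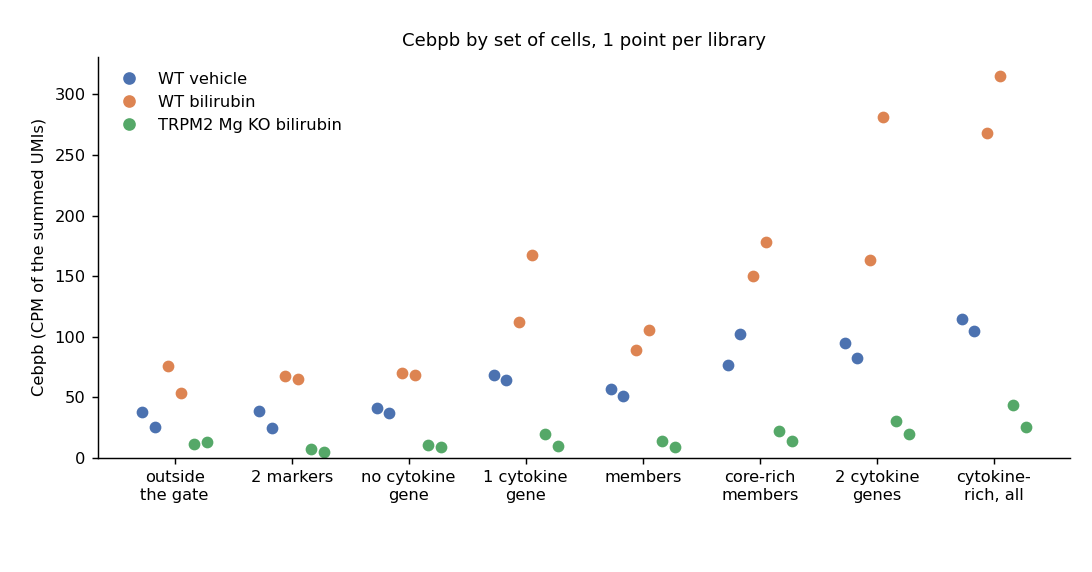
Cebpb level (y axis, CPM of the summed UMIs, not TMM-scaled) by set of cells (x axis), with 1 point per library coloured by group. In every set the bilirubin libraries are highest and the knockout libraries lowest, and cytokine-rich cells of the bilirubin libraries reach 268 and 315 CPM.

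The rule for named genes took 16 genes from bilirubin against vehicle, 8 higher and 8 lower. In all of them the libraries of both groups were apart, meaning that they did not overlap, and edgeR adjusted p ran from 0.0645 to 0.572. None was higher in members than outside the gate in all 6 libraries. The smallest p was that of Scgb3a1, a secretoglobin of secretory epithelia, with 2.37 and 1.02 CPM with vehicle, 45.3 and 18.7 with bilirubin, and 9.04 and 10.9 in the knockout (log2 fold change against vehicle 4.41, SE 0.54, edgeR adjusted p = 0.0645). Outside the gate it had 2.84 and 0.951, 41.8 and 13.1, and 7.29 and 28.2 CPM. It passed under 11 of 20 alternatives, over which the adjusted p ran from 4.5e-16 to 0.736.

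Lcn2, the acute-phase lipocalin that binds bacterial siderophores, was next. Its level was 10.1 and 17.0 CPM with vehicle, 63.3 and 112 with bilirubin, and 12 and 16.1 in the knockout, so both bilirubin libraries stood above the other 4. The log2 fold change against vehicle was 2.65 (SE 0.40, edgeR adjusted p = 0.184, 4.21 and 12.2 CPM outside the gate with vehicle and 81.8 and 106 with bilirubin). In core-rich members the level rested on the first bilirubin library, with 66.6 CPM against 3.21 in the second and 0 and 3.87 with vehicle.

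The other 6 genes that the rule named as higher in bilirubin reached at most 59.3 CPM in a library of these 2 groups. Anxa1, the glucocorticoid-induced annexin that dampens leukocyte entry, had 14.2 and 18.9 CPM with vehicle and 59.3 and 44.3 with bilirubin (log2 fold change 1.65). Lrg1, an acute-phase glycoprotein, had 2.80 and 2.51 against 16.1 and 10.1 CPM (2.35). Pawr gave 1.52, Cfap206, a cilium gene, 1.51, Tmem252 1.87 and Ctxn3 1.73, all at an edgeR adjusted p of 0.572.

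The 8 lower genes included transcripts that neurons and astrocytes are known to make. Bc1 stood at 15399 and 4024 CPM with vehicle, 1425 and 965 with bilirubin, and 2298 and 4000 in the knockout (log2 fold change of bilirubin against vehicle -3.02, SE 0.64, edgeR adjusted p = 0.572). The first vehicle library was far above the others, and in each library the level outside the gate, 19723 and 3984, 1272 and 1171, and 2286 and 4000 CPM, was close to that in the members. With neither side scaled, members were at 0.797 to 1.05 times the level outside the gate. C1ql3, a synaptic C1q-like protein, gave -2.84, the deiodinase Dio2 of astrocytes -2.38, the neuronal elongation factor Eef1a2 -2.10, Synpr -1.84, Sphkap -1.63 and Entrep2 -1.38.

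**Figure D4:**
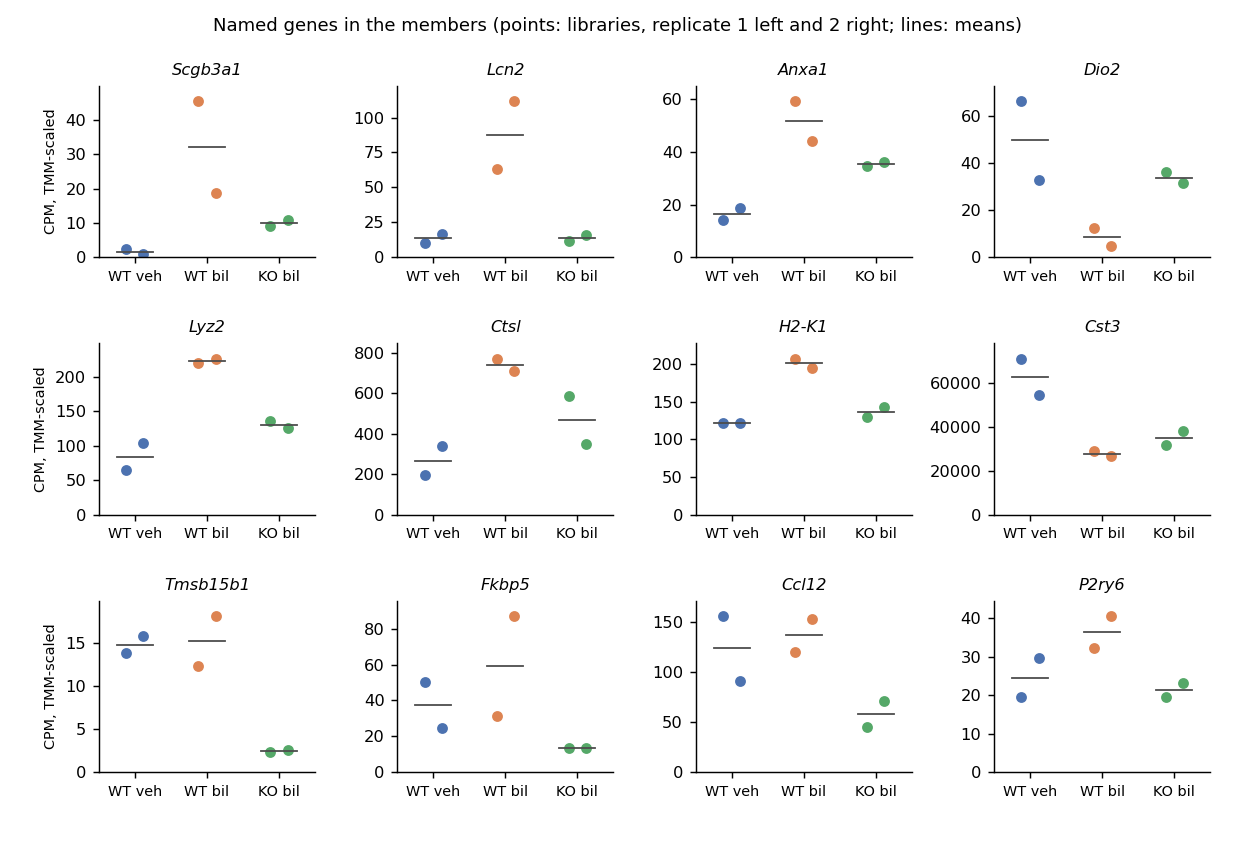
Levels of named genes in the members (y axes, CPM scaled by TMM factors, each starting at 0) in the 3 groups, with points for libraries, replicate 1 at the left and 2 at the right, and lines for the means. For Lcn2 the 2 bilirubin libraries lie at 63.3 and 112 CPM, above the other 4 libraries at 10.1 to 17.0 CPM.

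Besides Cebpb, the knockout against bilirubin had 15 named genes, none past the threshold and none higher in members than outside the gate in all 6 libraries. Lcn2 gave -2.67 (SE 0.42, edgeR adjusted p = 0.29) with the levels above, but -0.03 when the gate was applied to thinned counts. Tmsb15b1, a beta-thymosin with a near-identical copy, so that its count is uncertain, had 13.8 and 15.8 CPM with vehicle, 12.4 and 18.1 with bilirubin, and 2.35 and 2.58 in the knockout (-2.61, SE 0.42, edgeR adjusted p = 0.29). Outside the gate it was at 15.3 and 14.3, 13 and 20.5, and 2.90 and 1.55 CPM, so the 2 knockout libraries were low in both sets of cells.

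Several of these 15 genes are neutrophil transcripts that were high in the second bilirubin library. Camp, the cathelicidin of neutrophil granules, had 91.3 and 95.7 CPM with vehicle, 25.5 and 507 with bilirubin, and 1.17 and 3.22 in the knockout (log2 fold change -7.28, SE 1.28, edgeR adjusted p = 0.479). With the gate on thinned counts the value was 0.22. Ngp gave -6.00, Ifitm6 -4.51, Wfdc21 -3.92 and S100a8 -3.47, each at an edgeR adjusted p of 1, and each was higher in the second bilirubin library than in the first. Csf3r, the neutrophil gene of the gate, was detected in 11.2% of the members of that library and in at most 6.04% elsewhere. In core-rich members of each library Csf3r was detected more often than in all its members. The core-rich values were 7.64% and 13.7% with vehicle, 7.89% and 14.1% with bilirubin, and 4.10% and 10.7% in the knockout. S100a8 in core-rich members was at 0.0739 to 0.315 times the level outside the gate. Csf3r was therefore not read as a sign of neutrophil RNA.

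The other 8 of these genes were of mixed kinds. Fkbp5, a glucocorticoid-induced chaperone, had 50.1 and 24.7 CPM with vehicle, 31.2 and 87.0 with bilirubin, and 13.5 and 13.5 in the knockout (-2.10, SE 0.52, edgeR adjusted p = 1). The chemokine Cxcl2, which draws neutrophils, had 5.32 and 77.4 CPM with bilirubin and 1.64 and 3.22 in the knockout (-4.25). Azin2 gave -1.63 and Scgb3a1 -1.76. Higher in both knockout libraries were Dio2 (1.85), Kdr, the endothelial VEGF receptor (1.65), the basement membrane gene Hmcn1 (1.47) and Akap12 (1.18), which outside the gate stood at similar levels.

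Gene lists were read by the number of genes whose libraries were apart between the groups. Over all genes, 14.4% were apart and higher and 22.1% apart and lower in bilirubin against vehicle, with a median log2 fold change of 0.02. In the knockout against bilirubin the shares were 13% and 12.2%, with a median of -0.01. No gene of these lists passed the edgeR test except Cebpb in the C/EBP family, and the counts describe these 6 libraries only. The core-rich share was highest in the 2 bilirubin libraries, at 33.9% and 52.5%, with the first knockout library close at 33.3%. Its part in these counts was not tested. Counts in core-rich members are given beside them, where 16.1% of the genes were apart and higher and 16.5% apart and lower in bilirubin, and 11.7% and 13.6% in the knockout.

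Lysosomal and autophagy genes, which serve the breakdown of engulfed material, were, among the lists of microglial states and pathways, the one with the most genes apart in 1 direction. In bilirubin against vehicle 17 of 27 were apart and higher and 0 lower (median log2 fold change 0.41), and in core-rich members 18 of 27 and 0. This order was not particular to the members. The summed level of the list was 5907 and 5925 CPM with vehicle and 8107 and 6855 with bilirubin in whole libraries. Choroid plexus cells, also those inside the gate, had 4698 and 5100 against 7065 and 5848 CPM. Cytokine-rich cells had 9955 and 10541 against 17418 and 19202 CPM. Ctsl, a lysosomal cysteine protease, had 195 and 338 CPM with vehicle, 769 and 709 with bilirubin, and 585 and 351 in the knockout (log2 fold change of bilirubin against vehicle 1.47, SE 0.42, edgeR adjusted p = 0.572). Ctsh, another cathepsin, had 66.9 and 103, 167 and 186, and 181 and 128 CPM (1.05). In the knockout against bilirubin 0 were apart and higher and 12 lower (median -0.23), in members and core-rich members alike (median -0.27 in the latter). Grn, the progranulin that regulates lysosomes, had 210 and 287 CPM with bilirubin and 149 and 160 in the knockout (-0.68).

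Lyz2, the lysozyme of macrophages, followed the same order. Its level was 65.2 and 104 CPM with vehicle, 220 and 226 with bilirubin, and 135 and 126 in the knockout, with 1.40 (SE 0.36, edgeR adjusted p = 0.572) for bilirubin and -0.77 for the knockout. Outside the gate it was at 44.6 and 59.6, 112 and 97.2, and 79.2 and 129 CPM, so members exceeded the other cells in 5 of 6 libraries.

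Antigen presentation genes were apart and higher in bilirubin more often than lower, as were markers of other immune cells that carry these transcripts. Of 15 MHC class I genes 9 were apart and higher and 0 lower (median 0.55), and 9 and 0 of 12 in core-rich members. H2-K1, a class I heavy chain, had 122 and 122 CPM with vehicle, 207 and 195 with bilirubin, and 130 and 143 in the knockout (0.72 for bilirubin, -0.56 for the knockout), and H2-D1, another, 83.9 and 91.2, 163 and 152, and 130 and 135 CPM (0.85 for bilirubin). In the knockout against bilirubin 0 class I genes were apart and higher and 6 lower, also of the 12 in core-rich members. The summed class I level was higher with bilirubin in whole libraries too. It was 1033 and 1037 CPM with vehicle, 1288 and 1236 with bilirubin, and 1262 and 1275 in the knockout. Choroid plexus cells, also those inside the gate, overlapped, at 714 and 853 CPM with vehicle and 1028 and 851 with bilirubin. Of 10 MHC class II genes 5 were apart and higher and 1 lower in bilirubin (median 0.85), and 4 and 2 in core-rich members (median 0.58). Cd74, the invariant chain, had 44.2 and 68.6, 139 and 241, and 152 and 56.0 CPM (1.74), and H2-Aa 12.3 and 14.7, 28.8 and 67.2, and 33.6 and 12.2 CPM (1.79), with the 2 knockout libraries on opposite sides. Of 15 T, NK and B cell markers 9 were apart and higher and 0 lower in bilirubin (median 0.73), and of 10 monocyte and dendritic markers 4 and 0 (median 0.73). The summed level of the latter was 422 and 338 CPM with vehicle, 833 and 634 with bilirubin, and 528 and 750 in the knockout. In core-rich members the counts were 3 and 0 of 4, and 3 and 0 of 5. The part of these cells in the MHC counts was not tested.

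**Figure D5:**
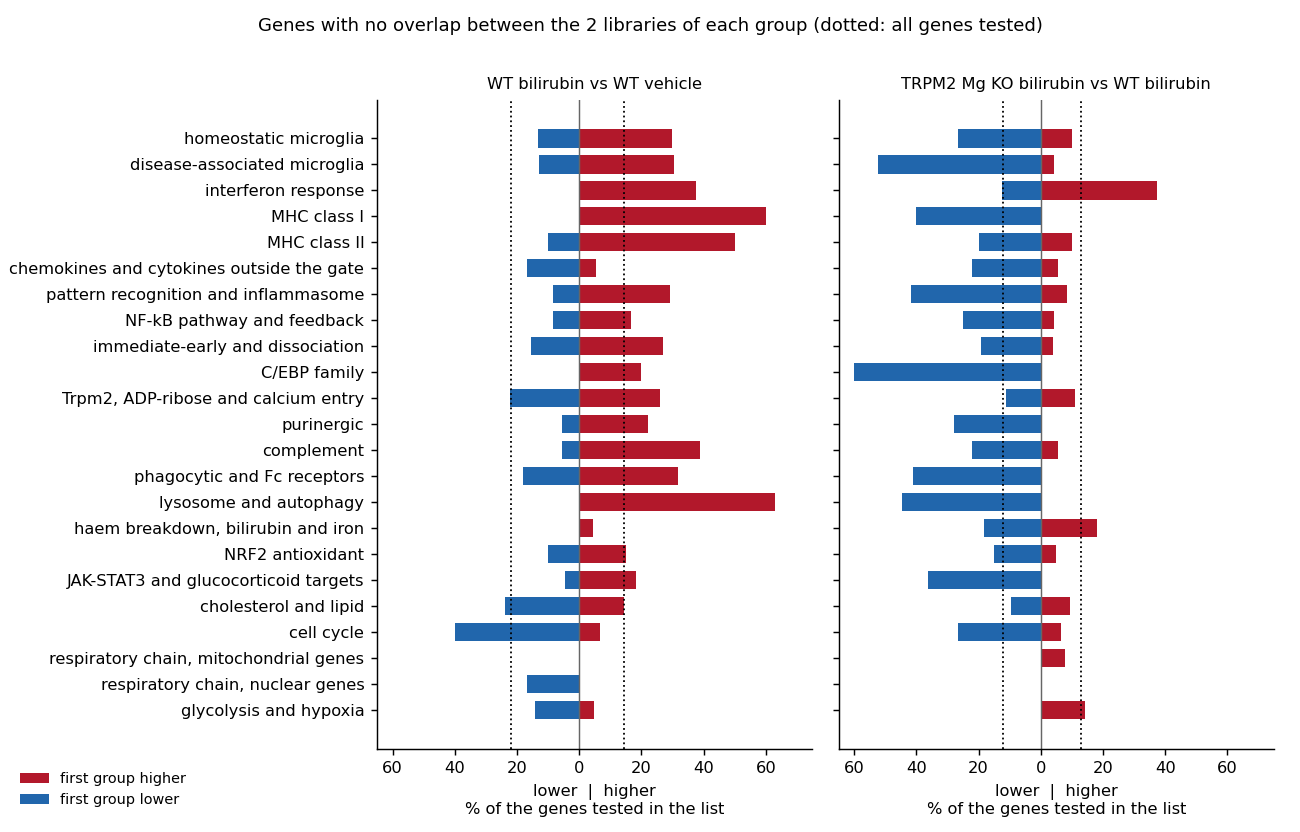
Share of the tested genes of each list (x axis, percent) whose libraries did not overlap between the groups, with bars to the right for genes higher in the first group named and to the left for genes lower, and dotted lines for all genes tested. In bilirubin against vehicle the lysosome list has 17 of 27 genes to the right and 0 to the left.

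The homeostatic list, the receptors and enzymes of resting microglia, differed between members and core-rich members. In bilirubin 9 of 30 genes were apart and higher and 4 lower (median 0.09), and in the knockout 3 and 8 (median -0.31). In core-rich members 12 of 30 were apart and higher and 2 lower in bilirubin (median 0.22), and 3 and 6 in the knockout (median -0.14). Itgam, the CD11b integrin, had 83.3 and 82.0 CPM with vehicle, 94.0 and 214 with bilirubin, and 108 and 112 in the knockout (0.89 for bilirubin, edgeR adjusted p = 0.593). Cst3, the secreted protease inhibitor cystatin C, had 70847 and 54488, 28818 and 26696, and 31496 and 38266 CPM, so both vehicle libraries were above the other 4 (-1.17 for bilirubin, SE 0.46, edgeR adjusted p = 0.572, and 0.33 for the knockout). This was not particular to the members. Whole libraries, without TMM scaling, had 55866 and 33949, 18069 and 11826, and 21828 and 32288 CPM of Cst3. Cytokine-rich cells had 90203 and 65571, 38488 and 44725, and 42354 and 44829 CPM, also unscaled. P2ry6, the UDP receptor that triggers phagocytosis, had 32.2 and 40.6 CPM with bilirubin and 19.5 and 23.2 in the knockout (-0.78), and the sialic acid receptor Cd33 34.8 and 58.7 against 26.2 and 32.8 (-0.66).

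C1qa from the label check was also apart in the bilirubin comparison without passing the test, at 0.30 (SE 0.39, edgeR adjusted p = 0.883). Against bilirubin the knockout gave -0.30 at an edgeR adjusted p of 1.

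Receptors and sensors were apart and lower in the knockout in part. Of 24 pattern recognition and inflammasome genes 2 were apart and higher and 10 lower (median -0.41), of 22 phagocytic and Fc receptors 0 and 9 (median -0.29), and of 23 disease-associated microglia genes 1 and 12 (median -0.38). Of 18 purinergic genes 0 were apart and higher and 5 lower. Of these, P2rx7, the ATP-gated channel upstream of the inflammasome, had 19.0 and 44.8 CPM with bilirubin and 16.5 and 18.7 in the knockout (-0.82). Fcgr2b, the inhibitory IgG receptor, had 58.0 and 101 against 46.9 and 36.1 CPM (-0.91), and Tlr2, which senses bacterial lipopeptides, 8.49 and 18.7 against 6.10 and 7.08 (-0.99). In each the second bilirubin library, which had the largest core-rich share, was highest. In core-rich members the pattern recognition list had 0 higher and 5 lower of 18, the phagocytic list 0 and 5 of 21, the disease-associated list 1 and 6 of 19, and the purinergic list 0 and 2 of 10.

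Among transcription factors and signalling genes, 3 of 5 measured C/EBP genes were apart and lower in the knockout and 0 higher, and in core-rich members 2 of 5 and 0. Cebpa, which drives myeloid identity, had 34.7 and 47.0 CPM with bilirubin and 21.0 and 30.9 in the knockout (-0.67, edgeR adjusted p = 1). Of 22 JAK-STAT3 and glucocorticoid targets 0 were apart and higher and 8 lower in the knockout (median -0.38; 1 and 5 of 19 in core-rich members), among them Lcn2 and Fkbp5, described above. Bcl3, an NF-kB cofactor, had 1.94 and 1.58 CPM with vehicle and 7.05 and 4.80 with bilirubin (1.82), and Atf3, a stress-induced repressor, 508 and 331 against 164 and 229 (-1.10).

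Interferon response and complement genes lay higher in bilirubin more often than lower. Of 24 interferon genes 9 were apart and higher and 0 lower (median 0.49; 7 and 0 of 13 in core-rich members), and 9 higher and 3 lower in the knockout against bilirubin (median 0.34), but in core-rich members 0 of 13 were higher there and 3 lower. Ifitm3, a membrane protein that blocks viral entry, had 143 and 151 CPM with vehicle, 405 and 156 with bilirubin, and 322 and 364 in the knockout (0.93 for bilirubin), and 150 to 597 CPM outside the gate. Of 18 complement genes 7 were apart and higher and 1 lower in bilirubin (median 0.44), and 8 and 0 of 14 in core-rich members. Serping1, the C1 inhibitor, had 4.96 and 9.10 CPM with vehicle and 24.7 and 13.3 with bilirubin (1.44). In whole libraries the summed interferon list was also higher, at 567 and 670 CPM with vehicle and 949 and 703 with bilirubin. Choroid plexus cells, also those inside the gate, overlapped, at 402 and 637 against 773 and 494 CPM. The summed complement list overlapped in whole libraries, at 4972 and 4598 against 5340 and 3220 CPM.

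Chemokines outside the gate mostly overlapped. In bilirubin 1 of 18 was apart and higher and 3 lower, and in the knockout 1 and 4. In core-rich members the counts were 1 and 2 of 13, and 2 and 2. Ccl12, a ligand of Ccr2, had 156 and 91.4 CPM with vehicle, 120 and 153 with bilirubin, and 44.7 and 70.8 in the knockout (-1.26 for the knockout, SE 0.40, edgeR adjusted p = 1), and in the second knockout library its level outside the gate, 68.8 CPM, was close to that in members. Cxcl14 had 174 and 112 CPM with vehicle and 85.5 and 25.1 with bilirubin (-1.34).

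Few genes of haem and bilirubin handling were apart, while those around the channel were apart in both directions. Of 22 genes of haem breakdown, bilirubin handling and iron 1 was apart and higher in bilirubin and 0 lower (median 0.21), below the share over all genes, and 3 and 1 of 20 in core-rich members. Of 27 genes around Trpm2, ADP-ribose and calcium entry 7 were apart and higher and 6 lower in bilirubin (median 0.13), and 3 and 3 in the knockout (median -0.05). In core-rich members these were 8 and 2 of 24 (median 0.24), and 2 and 3. Of 20 NRF2 antioxidant genes 3 and 2 were apart in bilirubin (median 0.16) and 1 and 3 in the knockout (median -0.08), and in core-rich members 3 and 1 of 18, and 3 and 2. Of 15 cell cycle genes 1 was apart and higher in bilirubin and 6 lower (median -0.16), with Ube2c, a ubiquitin-conjugating enzyme of mitosis, at 7.55 and 11.4 CPM with vehicle and 2.01 and 3.74 with bilirubin (-1.89). In core-rich members only 6 cell cycle genes could be tested, with 0 higher and 0 lower (median 0.06).

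Markers of other cells differed between the groups as well. In bilirubin against vehicle 0 of 21 neuron markers were apart and higher and 18 lower (median -1.36). Their summed level was 19652 and 6151 CPM with vehicle, 3227 and 2605 with bilirubin, and 4753 and 5571 in the knockout. Of 7 erythroid markers 0 were higher and 6 lower (median -2.24), with summed levels of 25381 and 32947, 5069 and 7358, and 34730 and 651 CPM. In the knockout against bilirubin 0 of 10 neutrophil markers were apart and higher and 7 lower (median -3.60), with summed levels of 878 and 674 CPM with vehicle, 554 and 4871 with bilirubin, and 110 and 554 in the knockout. Of 15 T, NK and B cell markers 0 were higher and 11 lower (median -1.21), with 256 and 315, 267 and 808, and 162 and 228 CPM. Endothelial markers were apart and higher in 5 of 12 in the knockout and lower in 0 (median 0.81), with 1398 and 2115, 6450 and 1872, and 7959 and 5323 CPM. Mitochondrially encoded genes followed the mitochondrial shares given above, with mt-Cytb at 907 and 1399, 10901 and 964, and 7806 and 4709 CPM. For the knockout against bilirubin, mt-Atp8 had 560 and 302 CPM against 152 and 39.0 (2.16, edgeR adjusted p = 1). In core-rich members the neuron list had 0 higher and 14 lower of 21 and the erythroid list 0 and 4 of 5 in bilirubin. For the knockout the neutrophil list had 0 and 4 of 6, the T, NK and B cell list 0 and 3 of 4, and the endothelial list 1 and 0 of 12. No marker of the 12 lists of other cells was at 0 in all libraries. The part of these cells and of mitochondrial RNA in the list counts was not tested.

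In the knockout against vehicle no gene passed the edgeR test (0%), with 647 genes at an unadjusted p under 0.05 and 18 called by DESeq2. In core-rich members 0% passed, with 391 genes at an unadjusted p under 0.05. Of the 6 genes named, Cebpb and Tmsb15b1 were lower, at -2.23 and -2.61 and an edgeR adjusted p of 0.344. The endothelial Notch ligand Dll4 (2.62), Rassf9 (1.97), Tmem252 (2.38) and mt-Atp8 (3.0) were higher, each at an edgeR adjusted p of 0.716. This comparison mixes treatment and genotype.

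Finally, the group effects in members were set against those in cytokine-rich cells of the same libraries, over 15378 genes. For bilirubin against vehicle 0% of the genes differed, with 1133 at an unadjusted p under 0.05 in edgeR, the only tool run for this test. For the knockout against bilirubin 1 gene differed (0.0065%), with 395 at an unadjusted p under 0.05. That gene was Klk6, a secreted kallikrein protease of oligodendrocytes, with 21 and 1 UMIs in members of the bilirubin libraries and 6 and 0 in the knockout, against 2 and 1 and then 46 and 0 in cytokine-rich cells. The difference of the log2 fold changes was -6.25 (SE 1.05, edgeR adjusted p = 0.0364), and it rests on the first knockout library, without which it was -2.58 with an edgeR adjusted p of 1.

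No other gene passed in either test of a difference. For Cxcl2 the difference was -2.69 (SE 0.50, edgeR adjusted p = 0.069), with 5.55 and 79.9 CPM in members and 32.2 and 122 CPM in cytokine-rich cells of the bilirubin libraries, against 1.71 and 3.34 and then 32.3 and 38.1 CPM in the knockout. For the neutrophil gene Retnlg the difference in bilirubin against vehicle was -3.01 (SE 0.53, edgeR adjusted p = 0.069). The predicted gene Gm56532 gave -1.64 (SE 0.30, edgeR adjusted p = 0.069), the neutrophil surface gene Ly6g -5.56 from few UMIs (0.175), and Cox8b, a subunit of cytochrome c oxidase, 1.23 (0.271). In core-rich cells the differences turned to 1.70 for Cxcl2 and 0.66 for Retnlg. The myeloid genes Chil3 (-3.26, edgeR adjusted p = 0.446) and Prtn3 (-3.44, edgeR adjusted p = 0.467) came next in the knockout comparison, and neither passed.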

How the data were processed

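UMI counts of 6 droplet libraries of mouse brain cells, 2 per group, were analysed. For each library the deposited files are a matrix of counts (whole UMIs per gene and cell, not normalized) and tables of barcodes and of 33696 genes, which are deposited names of the kind other and hold no measurement. Cell Ranger 9.0.1 is named in the matrices, per the file headers. Per the submitters' processing notes, tools were Cell Ranger 8.0.0 and Scanpy 1.9.6, and both GRCm39 and mm10 appear as builds with no role, so the build behind the counts is unclear and no coordinates are given. The sources used here do not give how cells were called or whether doublets were removed. Groups were taken from the sample titles.

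Of 95014 barcodes, 94144 had 500 or more UMIs, 300 or more genes detected and a mitochondrial share of no more than 15%. The members and the gene lists were chosen with earlier results of these data known. Doublets were not removed in the main analysis. Scrublet (scanpy 1.11.5) marked 0% to 44.8% of a library with its automatic threshold, so the 14246 cells with the highest scores at the expected rate, 2484 of them members, were removed only as an alternative. The 26 symbols held by more than 1 gene were kept as separate genes, and 6 list genes were absent under the symbol used.

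UMIs of the members were summed per library and compared in R 4.3.3 by quasi-likelihood F-tests of edgeR 4.0.16 (TMM, two-sided, filterByExpr, all 6 libraries in 1 fit, group only, 3 residual degrees of freedom), with Benjamini-Hochberg adjustment over all genes tested and a threshold of 0.05. The difference of group effects between members and cytokine-rich cells was tested on 12 sums with library as a block. DESeq2 1.42.0 was an alternative, as were other gates, normalizations and filters, a replicate block, and leaving out each library. Core-rich members and the mitochondrial covariate were added after the data had been seen. Shares of cells were compared by exact permutation over libraries, and shares of cells with a UMI are given unthinned and thinned, as the expected share with a UMI when each cell is reduced to 1000 UMIs. The total UMIs of a library's members, 1552382 to 11860633, set the precision.

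The rule for named genes took, in bilirubin against vehicle and in the knockout against bilirubin, up to 8 called genes with the highest and 8 with the lowest log2 fold change among genes with a mean of at least 5 CPM and libraries apart, filled up to 16 by the smallest p. Predicted genes, ribosomal protein genes, mitochondrially encoded genes and haemoglobins were not named by size. The rule added the 6 smallest p of the third comparison, the 2 smallest p of each of 23 lists in each of the first 2 comparisons, the 4 smallest p of each test of a difference, Trpm2, Cebpb, C1qa, Apoe, Cst3 and the gate genes. The text prints a part of these, and some genes are not reported here.

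Each fit was tested on simulated data. For bilirubin against vehicle it recovered 51% of genes changed 4-fold and 1.01% of those changed 2-fold, and for the knockout against bilirubin 57% and 5.1%, with 5 and 4 false calls. The tests of a difference made 5 and 15 false calls in the same order. Changes near 2-fold are therefore mostly beyond the reach of these 2 libraries per group.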

Additional observations from a re-analysis of the deposited data

Results flagged for a closer look

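Klk6 was the 1 gene whose knockout effect differed between members and cytokine-rich cells by the test of the difference itself. On the log2 scale the knockout effect against bilirubin in members minus that in cytokine-rich cells was -6.25 (SE 1.05, edgeR adjusted p = 0.0364). The UMIs behind it are few, 46 of them in the cytokine-rich cells of the first knockout library, and it passed under 3 of 10 alternatives with an edgeR adjusted p of 3.1e-05 to 1. On simulated data the knockout test of the difference made 15 false calls among 15202 genes, besides recovering 72.7% of 99 genes changed 4-fold and 32% of 100 changed 2-fold. Klk6 did not pass without vehicle replicate 1, vehicle replicate 2, bilirubin replicate 1 or knockout replicate 1.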

How the results depend on the processing

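The 2 libraries per group and the depth of the smallest libraries limit every comparison. Calls of genes for bilirubin against vehicle, the knockout against bilirubin and the knockout against vehicle numbered 0, 1 and 0. They were 10, 5 and 18 with DESeq2, 98, 24 and 124 with no low-count filter, 0, 3 and 25 with only the 4 libraries compared, and 4, 3 and 0 with the mitochondrial share as a covariate. Bilirubin against vehicle gave 1 call with doublets removed, with no cytokine gene allowed, with at least 3 of the 5 first markers, and with median-of-ratios size factors. With the replicate number as a block the calls were 1, 0 and 0, and the numbers did not pair the libraries (correlations of deviations 0.00466, -0.095 and 0.0297). The gate on thinned counts left 0 calls in the knockout against bilirubin. Leaving out 1 library at a time gave 0 to 29, 0 to 38 and 0 to 51 calls, with 29 without vehicle replicate 2, 38 without bilirubin replicate 1, 51 without bilirubin replicate 2, and 0 in all 3 without either knockout replicate. The test of differences from cytokine-rich cells gave 0 and 1 calls for the first 2 comparisons. For the knockout it gave 0 with doublets removed, with 3 of the 5 markers and with median-of-ratios size factors, 7 on thinned counts and 6 with no filter. For bilirubin it gave 4 in core-rich cells and 15 with no filter, and leaving out 1 library gave 0 to 4 and 0 to 170 calls, 170 without knockout replicate 1. Shares of all cells, bilirubin minus vehicle, turned to 1.26 percentage points in core-rich members. Knockout minus vehicle turned from -0.363 to 0.727 (thinned), 1.19 (no cytokine gene), 0.119 (3 of 5 markers), 1.67 (core-rich) and 0.766 (at least 1% core UMIs), and ran from -3.06 to 2.33 without 1 library. Among gated cells bilirubin minus vehicle turned to 3.31 (no cytokine gene) and 0.919 (core-rich), and knockout minus vehicle to -0.731 (at least 5 markers), with -3.41 to 8.18 without 1 library. Of 77 gene results 71 kept their direction under every alternative run. The 6 others were mt-Cytb in bilirubin (-0.092 with the mitochondrial covariate and -0.27 to 3.21 without 1 library), Camp (0.22 on thinned counts) and Trpm2 (-1.25 to 0.12 without 1 library) in the knockout, and the differences for Retnlg (0.66 in core-rich cells), Cxcl2 (0.59 thinned, 1.70 in core-rich cells) and Prtn3 (-4.55 to 0.039 without 1 library). The cause was not tested for any of these, beyond the fewer libraries or genes that an alternative holds.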
